A study of Mus musculus with 2 samples.

Results

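The 9 genes described here make, store and break down catecholamines: Th, Ddc, Dbh and Pnmt of the synthesis chain, Gch1 of cofactor supply, the vesicle genes Slc18a1, Slc18a2 and Cyb561, and Maoa of breakdown. They were chosen by name, as members of one pathway, from 18179 annotated genes with reads. Each of the 9 was detected in both libraries, and their reads fell on 109 transcript models per library, out of 103386 in replicate 1 and 100292 in replicate 2. Long-read RNA sequencing was done on 2 libraries of adrenal gland tissue from 10-day-old female mice of the strain B6CASTF1/J, an F1 hybrid, with no treatment named in the labels. It has 1 group, so levels and transcripts are described, and each test compares the reads of 2 libraries rather than 2 conditions. The labels give both libraries 1 donor identifier, and the library text of both names the same animal while the sample texts name 2, so it is not settled that the libraries come from separate animals. The p-values then measure only the difference between these 2 libraries, with counting error as the only error.

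Catecholamines are made in the chromaffin cells of the adrenal medulla, which the steroid-producing cortex surrounds. Tyrosine is hydroxylated to L-DOPA and decarboxylated to dopamine in the cytosol, dopamine is carried into secretory vesicles and hydroxylated there to noradrenaline, and a methyltransferase in the cytosol turns noradrenaline into adrenaline. Amines that leak back into the cytosol are oxidised at the mitochondrial surface.

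After removal of spike-in reads the libraries held 593058 and 772037 reads, so that 1 read equals 1.69 and 1.3 CPM (reads scaled to a common total), and a gene with 0 reads may have a level of up to 5.06 and 3.89 CPM (3 reads). The chromaffin marker list (8 genes) was present in both libraries, at 4016 and 4583 CPM in sum. It was led by the granins Chgb (1804 and 1947 CPM) and Chga (1595 and 1830 CPM). In replicate 2, 7 of the 8 were higher, among them Chga at 1.15-fold (exact binomial test, adjusted p = 0.020). With a 2-fold minimum 0 of the 8 were called different, where 3.46% of the 10567 genes tested were called. The cortex list (6 genes) summed to 16863 and 20737 CPM. Its 6 genes were all higher in replicate 2, with Cyp11a1 at 1.28-fold (exact binomial test, adjusted p = 1.2e-32), and 0 were called. Markers of other tissues were present. The 8 kidney tubule genes summed to 5.06 and 983 CPM (3 and 759 reads), the 8 liver genes to 8100 and 1304 CPM, and the 7 skeletal muscle genes to 10404 and 3632 CPM. The 7 brown fat genes summed to 15467 and 20881 CPM, 1.35-fold higher in replicate 2. Of the 7, 6 were higher in replicate 2, led by Fabp4 at 1.76-fold (exact binomial test, adjusted p = 8.3e-100). As each ratio was under 2-fold, 0 of 7 were called different. The square root of the common dispersion between the libraries was 0.251 over 10567 genes.

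The 9 genes together held 1159 reads in replicate 1 and 1635 in replicate 2, a summed level of 2036 ± 116 CPM (SD, n = 2). Th alone gave 48.5% and 44.3% of that sum. The order of mean levels was Th, Pnmt, Cyb561, Dbh, Gch1, Slc18a2, Maoa, Ddc and Slc18a1. The order was the same in both libraries except that Slc18a2 and Maoa changed places, and the counting intervals of Slc18a2, Maoa and Ddc overlapped within each library. Between libraries, 0 of the 9 genes were called different by the exact binomial test (Benjamini-Hochberg adjusted p below 0.05 and at least 2-fold), where 3.46% of the 10567 genes tested were called (3.88% with another form of the exact p, again with 0 of the 9). At an unadjusted p under 0.05 there were 2 of the 9, Dbh and Pnmt, and 16% of all genes tested. The median log2 ratio of replicate 2 over replicate 1 was -0.01 over the 9 genes and -0.04 over all genes tested. Since a long read counts 1 cDNA molecule, CPM was not divided by length. Per kilobase of the most frequent spliced model, Ddc moved up from eighth to a place before Gch1, at 34.7 CPM per kilobase against 33.3, since its most frequent model is a piece of 633 bases. Per kilobase of the annotated transcript with most reads, a scale added after the data were seen, Ddc was sixth at 11.2. On both scales Th was highest, at 515, and Slc18a1 lowest, at 4.43 and 4.04.

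**Figure D1:**
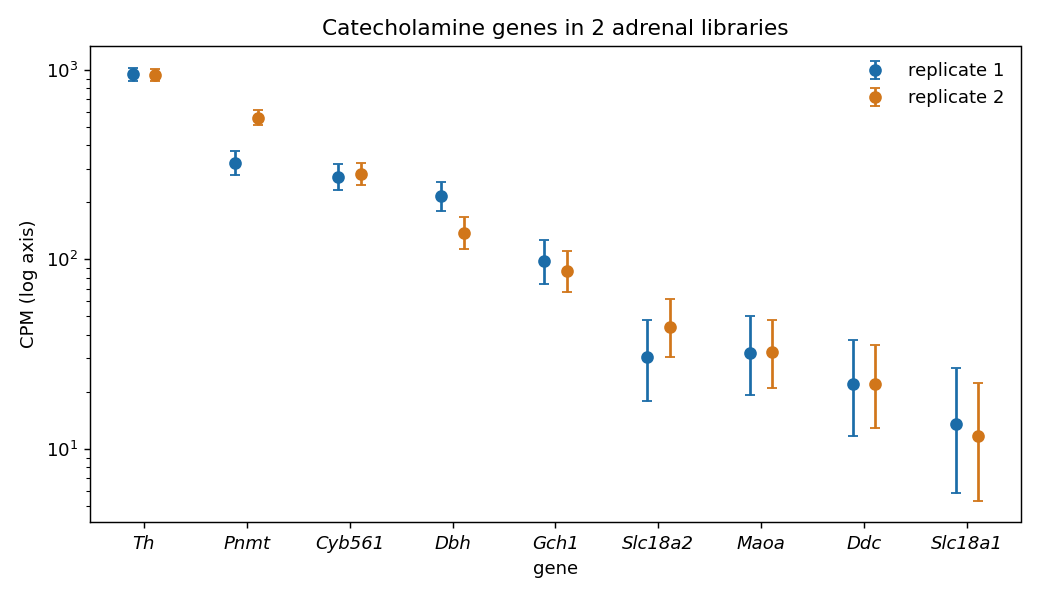
CPM of each gene (log axis) in replicate 1 and replicate 2, ordered by mean level; bars are exact 95% Poisson intervals of the read count and cover counting error only. Th is at 948 and 938 CPM in the 2 libraries, and Pnmt and Dbh are the genes whose intervals do not overlap between the libraries.

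Th encodes tyrosine hydroxylase, the rate-limiting enzyme of the chain, and lies on chromosome 7 (mm10, 142892752 to 142931128, minus strand). It had 562 reads in replicate 1 and 724 in replicate 2, or 948 and 938 CPM, a mean of 943 ± 6.97 CPM (SD, n = 2). The libraries differed by less than counting error (log2 ratio -0.02, exact binomial test, adjusted p = 1.000). Among all annotated genes with reads, Th lay above 99.4% by mean CPM.

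The promoter of Th is shown because 92.2% and 95.2% of spliced Th reads left from the first exon that it precedes (505 of 548 and 678 of 712). The 100 bases before the RefSeq start of the gene (GRCm38.p6, chr7:142899996-142900095, minus strand) read, 5′ to 3′, with the letters TGACGTCA in capitals:
Th: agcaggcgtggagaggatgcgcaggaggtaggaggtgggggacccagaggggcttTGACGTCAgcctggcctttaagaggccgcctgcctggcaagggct
TGACGTCA, which reads the same on both strands and is the textbook cyclic AMP response element, begins 45 bases before the start. It was found in 1.55% of 32851 RefSeq promoter windows of 250 bases. RefSeq windows were matched for 6 of the 9 genes, and Th was the only one of the 6 with these letters in its window.

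Th transcripts were nearly all of 1 form. The annotated Th-201, with 13 exons and 1829 bases, held 478 of 562 reads (85.1%, exact 95% interval 81.8 to 87.9) in replicate 1 and 655 of 724 (90.5%, 88.1 to 92.5) in replicate 2. The difference of 5.42 percentage points was not called (Fisher's exact test, adjusted p = 0.066), where 1.8% of the 2162 genes tested were called. Reads on models of 2 or more exons were 97.5% and 98.3% of all Th reads (adjusted p = 0.917), and 0.278% of 2162 genes were called on that measure.

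The other Th reads were spread over many rare models: 55 distinct Th models were seen, of which 14 were in both libraries, with unannotated single-exon models pooled as 1. Part of them kept an intron in an otherwise spliced read, 26 of 548 spliced reads (4.74%, 3.12 to 6.88) in replicate 1 and 20 of 712 (2.81%, 1.72 to 4.3) in replicate 2. Intron 5, of 331 bases, was kept in 17 of 533 and 8 of 694 reads that spanned it. Intron 8, of 158 bases, was kept in 12 of 543 and 10 of 703. These were the most often retained of the 12 introns in each library, and introns 1 and 10 were kept in no spliced read. The intervals of the 2 libraries overlapped, and the difference in retention was not tested.

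**Figure D2:**
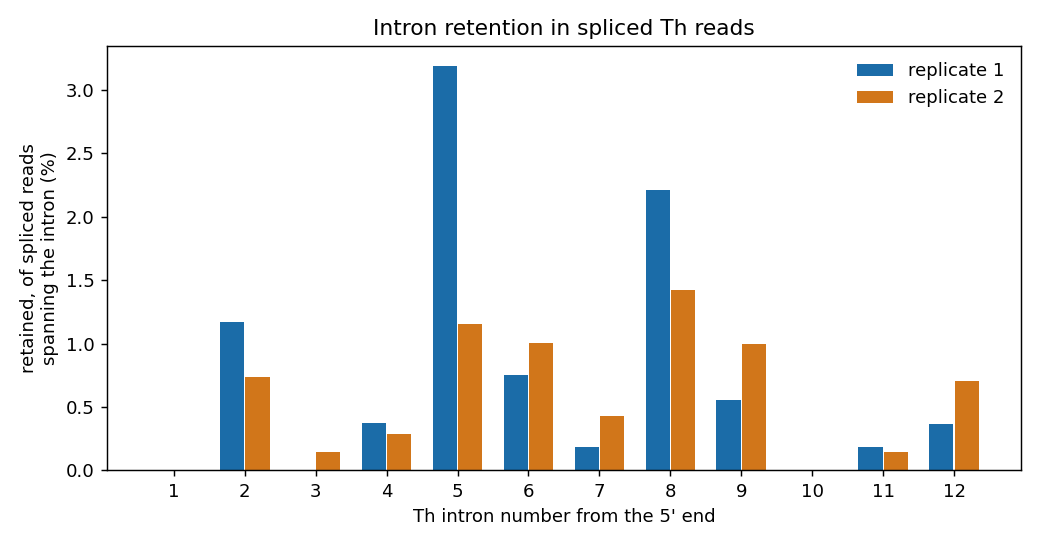
Share of spliced Th reads spanning each intron that retain it (percent), for the 12 introns of Th-201 in 5′ to 3′ order, in replicate 1 and replicate 2. Introns 5 and 8 are highest in both libraries, at 3.19 and 2.21% in replicate 1 and 1.15 and 1.42% in replicate 2.

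Gch1 encodes GTP cyclohydrolase 1, the first enzyme in the synthesis of tetrahydrobiopterin, the cofactor of tyrosine hydroxylase, and lies on chromosome 14 (47153895 to 47189413, minus strand). It had 58 and 67 reads, or 97.8 and 86.8 CPM, and did not differ beyond counting error (log2 ratio -0.17, exact binomial test, adjusted p = 0.953). There were 10.3 Gch1 reads per 100 Th reads in replicate 1 and 9.25 in replicate 2. Gch1-201, with 6 exons, held 50 of 58 and 56 of 67 reads, and most others, 7 and 9 reads, were on single-exon models. Its transcripts were the least varied of the 9 genes, with 3 distinct models, each seen in both libraries, where unannotated single-exon models were pooled as 1.

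Of 13 further genes of cofactor supply (tetrahydrobiopterin, pyridoxal phosphate, ascorbate and S-adenosylmethionine), 12 had 5 or more reads and 0 of 12 tested were called different in either direction. The highest was Mat2a, which makes the methyl donor S-adenosylmethionine, at 314 and 282 CPM. Qdpr, which regenerates tetrahydrobiopterin, stood at 113 and 159 CPM, above Pts (70.8 and 75.1 CPM) and Spr (28.7 and 40.2 CPM), both of the synthesis of that cofactor. Gchfr, which encodes the feedback regulator of GTP cyclohydrolase, had 17 and 20 reads.

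Ddc encodes aromatic L-amino acid decarboxylase, which turns L-DOPA into dopamine, and lies on chromosome 11 (11814101 to 11898144, minus strand). It had 13 and 17 reads, or 21.9 and 22 CPM, the lowest of the 4 synthesis genes in both libraries. There were 43.2 Th reads for each Ddc read in replicate 1 and 42.6 in replicate 2, with an exact 95% interval for Ddc over Th of 0.0122 to 0.0399 and 0.0136 to 0.0379. The Ddc level in replicate 2 over that in replicate 1 was 1.005, with an exact 95% interval from 0.46 to 2.25. Ddc is also known in kidney tubule, whose marker genes had 3 and 759 reads; their part in the Ddc level was not tested.

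Few Ddc reads ran the length of the gene. The annotated Ddc-202, with 15 exons and 1954 bases, held 2 reads in replicate 1 and 4 in replicate 2. The most frequent model was a piece of the last 2 exons, of 633 bases, with 5 and 7 reads. A model of the last 3 exons had 3 reads, all in replicate 1. An intron was counted as covered where a read spliced it at its annotated sites or kept it within an exon. In 10 of 11 and 12 of 16 spliced reads the last intron was covered, but introns 5 to 11 were covered by 2 and 4. In replicate 2, 1 read spliced to the last exon at an unannotated site and was not counted there.

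Ddc has 2 promoters in the RefSeq table; in rodents the distal one is known for expression outside the nervous system and the proximal one for neurons. Spliced reads with an annotated first exon came from the proximal one in 3 of 3 cases in replicate 1 and in 6 of 7 in replicate 2. The other read of replicate 2 began at the distal first exon. The last 100 bases before both RefSeq starts (GRCm38.p6, minus strand, proximal chr11:11890409-11890508, distal chr11:11898145-11898244) are given to show the 2 starts side by side, with the letters CCAAT or TATAAA, on either strand, in capitals:
Ddc proximal: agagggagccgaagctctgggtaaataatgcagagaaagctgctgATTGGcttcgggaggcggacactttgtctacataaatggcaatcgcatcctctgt
Ddc distal: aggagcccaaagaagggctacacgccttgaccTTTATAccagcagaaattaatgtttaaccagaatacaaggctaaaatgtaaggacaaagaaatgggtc
CCAAT was found in 33.8% of the 250-base windows and TATAAA in 12.4%, counting both strands, so neither match sets these promoters apart.

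Dbh encodes dopamine beta-hydroxylase, the vesicle enzyme that makes noradrenaline and uses ascorbate, and lies on chromosome 2 (27165233 to 27183200, plus strand). It had 128 reads in replicate 1 and 107 in replicate 2, or 216 and 139 CPM, a mean of 177 ± 54.6 CPM (SD, n = 2). Replicate 1 was 1.56-fold higher (95% interval 1.2 to 2.03; log2 ratio -0.64, exact binomial test, adjusted p = 0.016). The ratio was under 2-fold, so the gene was not called.

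Pnmt encodes phenylethanolamine N-methyltransferase, which makes adrenaline and is known to depend on glucocorticoid from the cortex, and lies on chromosome 11 (98386450 to 98388181, plus strand). It had 191 and 433 reads, or 322 and 561 CPM. The direction was opposite to that of Dbh: replicate 2 was 1.74-fold higher (1.47 to 2.08; log2 ratio 0.80, exact binomial test, adjusted p = 4.2e-09). This was again under 2-fold and not called. The edgeR negative binomial exact test called 0 of the 9 genes and 1.17% of all; its dispersion was estimated from the same 2 libraries that it compares, so it counts part of any difference as spread and does not weigh a single gene.

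Th was level when scaled to total reads (log2 ratio -0.02). Pnmt reads per Th read were 0.34 in replicate 1 (exact 95% interval 0.287 to 0.401) and 0.598 in replicate 2 (0.53 to 0.675). Dbh over Th was 0.228 (0.187 to 0.276) and 0.148 (0.12 to 0.181). Pnmt over Dbh was 1.49 (1.19 to 1.88) and 4.05 (3.27 to 5.05). None of these 3 pairs of intervals overlapped, but each ratio holds Dbh or Pnmt, and overlap was not counted for ratios of other genes. Without the fold minimum 2 of the 9 genes, Dbh and Pnmt, passed the exact binomial test, where 6.79% of all genes did. The cortex list was 1.23-fold, the chromaffin list 1.14-fold and the brown fat list 1.35-fold higher in replicate 2. Sympathetic neurons also make Dbh, and their 7 markers summed to 673 and 637 CPM. Of these 5 were lower in replicate 2 and 2 higher, among the latter Npy, the highest, at 359 and 426 CPM. The 6 tested had log2 ratios centred on -0.31 (median), against -0.04 over all genes tested. Of those genes 5022 of 10567 were higher in replicate 2. The part of these lists, or of the kidney, liver and muscle reads, in the Pnmt and Dbh differences was not tested. In whole tissue, fewer cells of a type and less RNA per cell cannot be told apart.

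Pnmt transcripts were short and mostly of the annotated form. Pnmt-201, with 3 exons and 1154 bases, held 167 of 191 reads (87.4%, 81.9 to 91.8) and 385 of 433 (88.9%, 85.6 to 91.7). The share was not called different (Fisher's exact test, adjusted p = 0.921). Single-exon models held 21 and 34 reads, and 3 spliced reads of replicate 2 kept the 108-base intron 2. A splice from the first exon directly to the last, which leaves out exon 2, had 1 read in each library.

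Dbh transcripts were more often shortened at the 5′ side. Dbh-201, with 12 exons and 2552 bases, held 74 of 128 reads (57.8%, 48.8 to 66.5) and 70 of 107 (65.4%, 55.6 to 74.4), and the share was not called different (Fisher's exact test, adjusted p = 0.764). Spliced reads that covered the last intron were 97.5% and 98.1%, but 66.7% and 72.1% covered the first. For Th the same shares were 99.5 and 99.6% at the last intron and 92 and 95.4% at the first, on a shorter transcript. Reads that first appear at an internal Dbh exon, 39 of 120 and 28 of 104 spliced reads, were spread over 9 exons in the 2 libraries together.

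**Figure D3:**
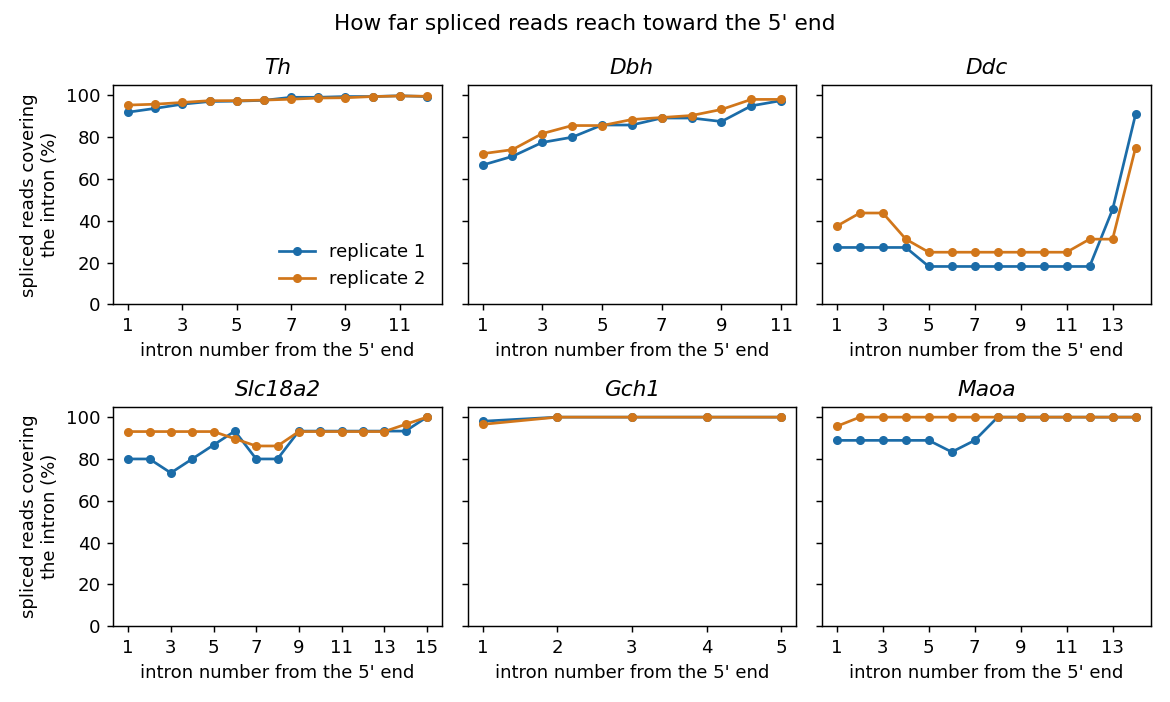
Percent of spliced reads whose model covers each intron, numbered from the 5′ end, for Th, Dbh, Ddc, Slc18a2, Gch1 and Maoa in replicate 1 and replicate 2. Covered means spliced at the annotated sites or kept within an exon. Coverage of Dbh falls from 97.5 and 98.1% at the last intron to 66.7 and 72.1% at the first, while Th stays above 90% throughout; Ddc and Slc18a2 rest on few reads.

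A donor 3 bases before the annotated one ended Dbh exon 9 in 3 reads of replicate 1 and 2 of replicate 2. The exon is coding, has 60 bases (mm10, chr2:27178188-27178247, plus strand) and is printed with the 3 bases that these reads leave out in capitals:
Dbh exon 9: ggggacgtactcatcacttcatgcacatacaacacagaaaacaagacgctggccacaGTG
The change leaves out 3 bases and keeps the reading frame. It was 1 of 4 unannotated Dbh introns found in both libraries, of 17 in all, and the only one of the 4 with more than 1 read in each.

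Slc18a1 and Slc18a2 encode the vesicular monoamine transporters VMAT1 and VMAT2, which load amines into vesicles. Slc18a2 (chromosome 19, 59260896 to 59296012, plus strand) had 18 and 34 reads, or 30.3 and 44 CPM. Slc18a1 (chromosome 8, 69037711 to 69089235, minus strand) had 8 and 9 reads, or 13.5 and 11.7 CPM. Slc18a2 over Slc18a1 was 2.25 in replicate 1, with an exact 95% interval of 0.931 to 5.98, and 3.78 in replicate 2 (1.78 to 8.96), so at this depth Slc18a2 was the higher one beyond counting error in replicate 2 alone. Neither was called different between libraries (log2 ratio 0.52 and -0.22, exact binomial test, adjusted p = 0.702 and 1.000). The exact 95% intervals of replicate 2 over replicate 1 took in a 2-fold difference, at 0.797 to 2.73 for Slc18a2 and 0.296 to 2.57 for Slc18a1. VMAT2 is also found in mast cells, whose 8 markers had 14 and 25 reads in sum, led by Hdc (3 and 10 reads) and Tpsb2 (5 and 7), with Fcer1a and Ms4a2 at 0 in both libraries; their part in the Slc18a2 level was not tested.

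Slc18a2-201, with 16 exons and 3785 bases, held 7 of 18 and 22 of 34 reads. Exon 8 was skipped in 2 reads of each library and included in 11 and 25. Its 44 coding bases (chr19:59274494-59274537, plus strand) are not a multiple of 3, so its loss shifts the reading frame:
Slc18a2 exon 8: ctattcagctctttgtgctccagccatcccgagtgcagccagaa
Intron 1 was kept in 1 and 3 spliced reads. Because an annotated transcript, Slc18a2-202, begins with an exon that reaches across that intron, the same reads were counted at its first exon.

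Slc18a1 reads rarely reached the annotated 5′ end. The 17-exon Slc18a1-201 had 0 reads in replicate 1 and 1 in replicate 2, and the most frequent chain, of 16 exons and 2838 bases, had 2 and 3. In 4 of 7 and 3 of 7 spliced reads the first splice left the first exon of Slc18a1-202, which lies 11792 bases downstream of that of Slc18a1-201. Exon 15 was skipped in 1 read of each library and included in 6 and 6. It is coding, and its 120 bases (chr8:69040582-69040701, minus strand) are a multiple of 3:
Slc18a1 exon 15: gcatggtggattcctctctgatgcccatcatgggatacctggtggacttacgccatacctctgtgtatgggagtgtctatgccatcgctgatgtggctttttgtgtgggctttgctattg
With 1 read in each library the skip was seen in both, but its share has no usable precision.

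Cyb561 encodes the cytochrome of the vesicle membrane that passes electrons inward to renew the ascorbate used by dopamine beta-hydroxylase, and lies on chromosome 11 (105933702 to 105953336, minus strand). It had 162 and 219 reads, or 273 and 284 CPM, a mean of 278 ± 7.43 CPM (SD, n = 2), and was not called different between libraries (log2 ratio 0.05, exact binomial test, adjusted p = 1.000). Cyb561 over Dbh was 1.27 in replicate 1, where the exact 95% interval of 0.998 to 1.61 took in equality, and 2.05 in replicate 2 (1.62 to 2.6).

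Most Cyb561 reads were on an unannotated transcript model. Annotated models held 11.1% (6.72 to 17) and 19.2% (14.2 to 25) of its reads, against 71 and 75.6% of the reads of all annotated genes. The most frequent chain had 6 exons and 2504 bases, with 93 of 162 (57.4%, 49.4 to 65.1) and 113 of 219 reads (51.6%, 44.8 to 58.4), and its share was not called different (Fisher's exact test, adjusted p = 0.788). The annotated Cyb561-201 had 16 and 37 reads, and an unannotated chain of 7 exons had 14 and 14.

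What set the main chain apart from Cyb561-201 was the exon from which its first splice left. In 98 of 154 (63.6%, 55.5 to 71.2) and 114 of 211 spliced reads (54%, 47 to 60.9) the first splice left an exon, ending at position 105940100, that the annotation holds only inside longer transcripts, 4011 bases downstream of the annotated first exon. The annotated first exon was used in 31 and 54 reads (20.1 and 25.6%). Whether reads of the main chain began at the downstream exon or were cut short on their 5′ side was not tested. An unannotated donor 4181 bases downstream had 9 and 19 reads, and another, 5573 bases downstream, had 2 and 10. Those were the 2 unannotated Cyb561 introns found in both libraries, of 8 in all.

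**Figure D4:**
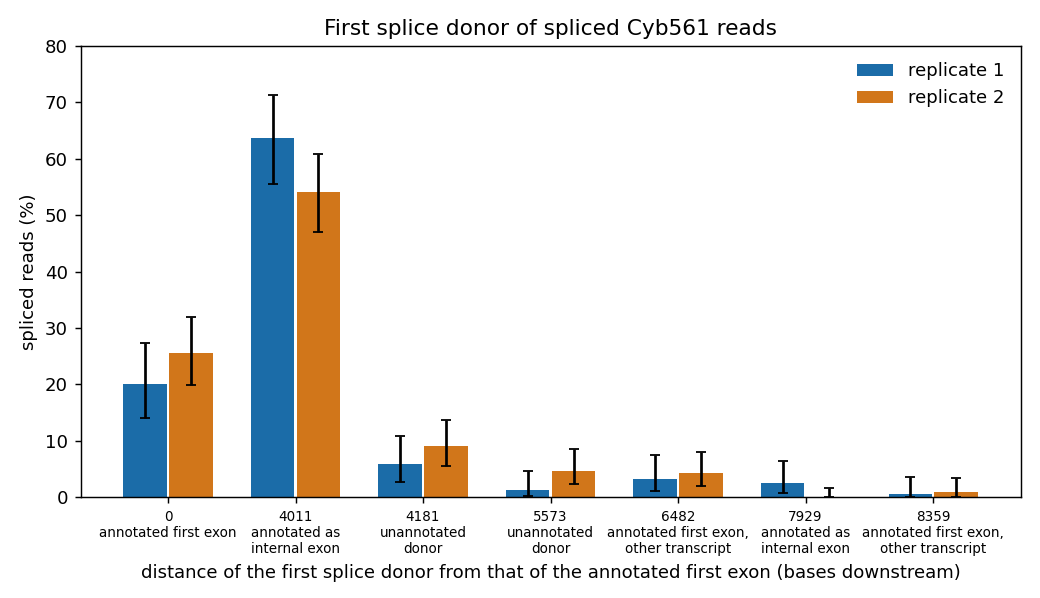
Percent of spliced Cyb561 reads by the exon from which the first splice leaves, placed by distance in bases downstream of the annotated first donor; exons with 3 or more reads summed, bars are exact 95% intervals. The exon 4011 bases downstream, annotated as internal, has 63.6 and 54% of reads, above the annotated first exon at 20.1 and 25.6%.

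The coding sequence was the same in most of these forms. The start codon lies at 105937827, downstream of all of the first splice donors named above. In 136 of 162 (84%, 77.4 to 89.2) and 193 of 219 Cyb561 reads (88.1%, 83.1 to 92.1) the model carried all 4 introns within the coding sequence and reached past both of its ends. The deposited class of the main chain differed between libraries: it was an incomplete splice match in replicate 1 and a combination of annotated splice sites in replicate 2. It made up 93 of the 215 incomplete reads of the 9 genes in replicate 1 and 113 of the 150 combination reads in replicate 2. Over all annotated genes, 783 of 29783 spliced models present in both libraries (2.63%) carried different classes, and of the 47 such models of the 9 genes 1 did, so class shares of Cyb561 are not compared here.

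Reads on models that held the whole coding chain were 80% or more in both libraries for Th, Pnmt, Cyb561 and Gch1. They were 57.8 and 65.4% for Dbh, 44.4 and 70.6% for Slc18a2, 37.5 and 55.6% for Slc18a1, 78.9 and 88% for Maoa, and 15.4 and 23.5% for Ddc. The interval of Ddc in each library (1.92 to 45.4 and 6.81 to 49.9) lay below that of Th (81.8 to 87.9 and 88.4 to 92.8). Between libraries the intervals of each of the 9 genes overlapped except for Th, whose upper bound of 87.9 in replicate 1 lay under the lower bound of 88.4 in replicate 2. This share was not tested, and it was computed for the 9 genes alone. Because model ends are not read ends, it does not show that each read itself reached the start codon. On another measure, the main transcript share, the median over 2162 genes was 77.4% in replicate 1 and 81.3% in replicate 2.

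**Figure D5:**
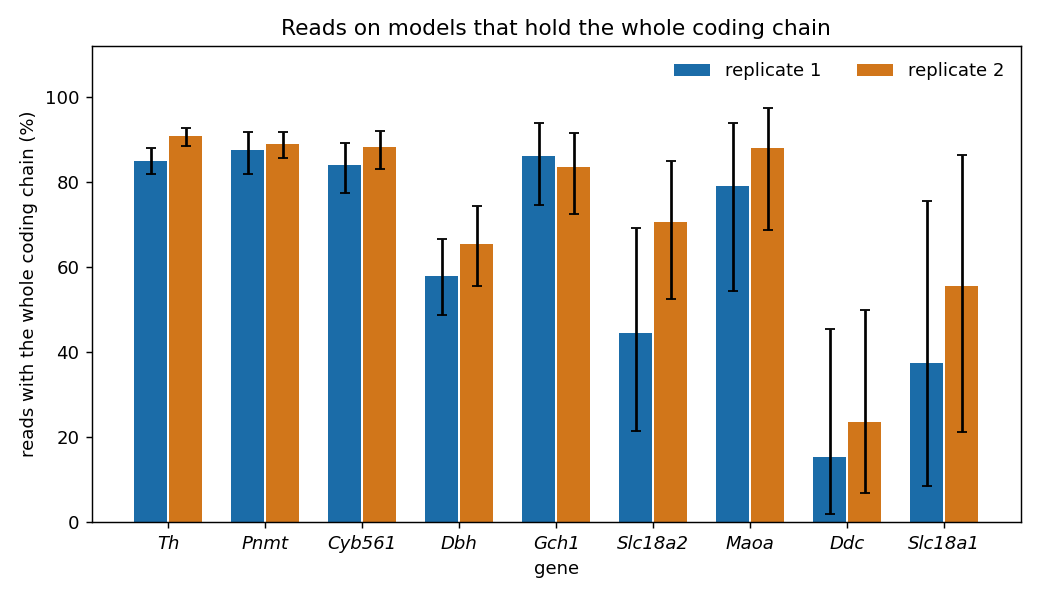
Percent of each gene's reads on models that hold every intron within the coding sequence of its main annotated transcript and extend past both of its ends, in replicate 1 and replicate 2; bars are exact 95% intervals. Th, Pnmt, Cyb561 and Gch1 lie above 80%, and Ddc is lowest at 15.4 and 23.5%.

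Maoa encodes monoamine oxidase A, which oxidises noradrenaline, adrenaline and dopamine, and lies on the X chromosome (16619698 to 16687818, plus strand). It had 19 and 25 reads, or 32 and 32.4 CPM, a log2 ratio of 0.01 (exact binomial test, adjusted p = 1.000). Maoa-201, with 15 exons and 4167 bases, held 15 of 19 and 22 of 25 reads, and 16 of 18 and 23 of 23 spliced reads left from its first exon. Although it is the longest main transcript of the 9, 88.9 and 95.7% of its spliced reads covered the first intron.

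Of 9 other genes listed under catecholamine breakdown, 8 had 5 or more reads and 0 of 8 tested were called different. Maob, the other monoamine oxidase, had 9 and 8 reads, and Maoa over Maob was 2.11 (0.91 to 5.3) and 3.13 (1.37 to 8.02). The highest of the list was the aldehyde reductase gene Akr1a1 at 361 and 462 CPM. The log2 ratios of the list went both ways around a median of 0.08, from -0.54 for Maob to 0.73 for Renbp. Renbp, although on the list, encodes renin-binding protein, which is not an enzyme of catecholamine breakdown. The next highest ratio was 0.69, for Sult1a1. Several of these enzymes are also abundant in liver, whose marker list was 6.21-fold higher in replicate 1; its part in these levels was not tested.

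Of 10 genes for uptake and amino acid supply, 9 had 5 or more reads and 0 of 9 tested were called. Slc6a2, the noradrenaline transporter, had 36 and 22 reads (60.7 and 28.5 CPM, exact binomial test, adjusted p = 0.081), and Slc6a3, the dopamine transporter, had 0 in both. Slc6a2 is also a marker of sympathetic neurons, whose list of 7 genes stood at 673 and 637 CPM in sum. Npy, the highest of the list, was at 359 and 426 CPM, while 5 of the 7 were lower in replicate 2, Nefl among them at 101.2 and 54.4 CPM. Of 12 adrenergic and dopamine receptor genes, 7 had 5 or more reads and 4 could be tested, with 0 called. The highest of them was Adra1d, with 10 and 9 reads.

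Neighbouring genes overlap part of these loci. On the opposite strand Atp6v1b2, at the Slc18a1 locus, had 108 and 151 reads, Gm9910, at Cyb561, 2 and 4, and Gm15716, also at Slc18a1, 0 and 1. Gm49134, opposite Gch1, had 1 and 0. How the authors' counting used the strand is not given in the sources used here.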

How the data were processed

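The authors deposited, for each of 2 libraries, raw read counts for every transcript model, not normalized, beside the model coordinates. Per the deposited notes these use mm10 and GENCODE M21, and TALON is named in the source field of the coordinates. Aligner, platform and tool versions: not given in the sources used here. Counts were summed per gene, ERCC reads (2.25 and 2.11%) left out, and spliced models matched between libraries by their introns. Unannotated single-exon models were pooled within each gene. Of 172 unannotated spliced models of the 9 genes, counted in each library and so with shared models counted in both, 151 began and 153 ended exactly on an annotated exon boundary, so model ends are not read ends.

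Genes with 10 or more reads summed (10567) were compared by a two-sided exact binomial test in which each library's total reads set the null share, Benjamini-Hochberg adjusted, and called at adjusted p below 0.05 and 2-fold (pseudocount 0.5 reads). The two-sided p was run in 2 forms. Summing all outcomes no likelier than the one seen was run first and called 410 genes (782 without the fold minimum). Doubling the smaller tail called 366 (717); it is the form reported, and it was picked after both counts were known because it matched an earlier count from these data. Neither called any of the 9 genes; the adjusted p of Dbh was 0.014 and 0.016, that of Pnmt 4.2e-09 in both. Transcript and spliced shares were tested by Fisher's exact test in genes with 50 reads in each library (10 percentage points), and spread by edgeR 4.0.16. Intervals are 95%, exact Clopper-Pearson or Poisson, and cover counting error only. Python 3.11.15 and scipy 1.17.1 were used, and the tests were checked on simulated data.

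The genes and lists were chosen with earlier results of these data known. All 9 genes were named, as were models with 5% of a gene's reads, list genes with 5 reads, the 2 leading genes of a marker list, and annotated first exons with 2 reads. Rarer splice events were named after their reads were seen. Promoters came from RefSeq (GRCm38.p6) and exons from GENCODE M21 transcripts. SIRV spike-ins were not analysed here. Values of 1 gene of the breakdown list are not reported here.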

Additional observations from a re-analysis of the deposited data

Results flagged for a closer look

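Reads on the opposite strand within 3 of the loci, assigned in the deposit to unannotated antisense models and used in no comparison, exceeded the 3 reads that a count of 0 allows in 1 library. Within Gch1 there were 5 such reads in replicate 1 and 2 in replicate 2. Within Ddc there were 4 in replicate 1 and 1 in replicate 2, and within Slc18a1 4 in replicate 2 and 2 in replicate 1. All of these models had 1 exon. Within Th, Dbh, Pnmt and Cyb561 there were 0 in both libraries.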

How the results depend on the processing

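The count of called genes among the 9 stayed at 0 under every other setting run except without the fold minimum. There it was 2, where 6.79% of all genes tested passed, against 3.46% in the main setting. Ddc and Slc18a1 had under 10 reads summed on annotated models and were not tested with those alone. With annotated models alone the summed level was 1498 in place of 2036 CPM, with Cyb561 at 42.4 in place of 278, Dbh at 108 in place of 177, Slc18a2 at 20.1 in place of 37.2, Ddc at 4.28 in place of 22 and Slc18a1 at 0.648 in place of 12.6 CPM; the log2 ratio of Cyb561 was then 0.70 in place of 0.05 and that of Slc18a2 1.08 in place of 0.52, neither called. Leaving out 1 library at a time gave 1954 to 2118 CPM, and 54.5 to 66.9% for Cyb561 reads that first splice from an annotated internal exon (mean 60.7%). The spread was 0.159 without the 500 genes of largest fold.

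The log2 ratio turned for genes near 0: Th to 0.02 (TMM), 0.08 (ERCC totals) and 0.02 (edgeR); Ddc to 0.03, 0.09 and 0.04 with the same settings and 0.07 with spliced models alone; Cyb561 to -0.10 with granin (Chga and Chgb) totals and -0.25 with cortex totals; Maoa to -0.15, -0.29 and, with spliced models, -0.11. Granin and cortex totals moved the median of all genes to -0.19 and -0.34. Th was then at -0.17 and -0.31 (exact binomial test, adjusted p = 0.272 and 0.003), not called in either. The difference in main transcript share of Pnmt turned to -1.74 points with spliced models alone, and that in spliced share of Th to -0.725 points without annotated models. The causes were not tested. Pnmt kept its direction in every setting run, from 0.50 to 0.89, and Dbh from -0.94 to -0.54; the adjusted p of Dbh was 0.056 with ERCC totals and 0.215 with annotated models alone.

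Over all genes, 366 calls (93 higher in replicate 2, 273 in replicate 1) became 124 with the negative binomial test, 717 without a fold minimum (381 and 336), 601 with cortex totals (56 and 545), 441 with granin totals (64 and 377) and 378 with ERCC totals (136 and 242). Calls of main transcript share went from 39 to 21 with 20 reads and 14 with spliced models alone. The form of the exact p, the length of the annotated transcript and the limit to models with 2 or more reads were added after the data were seen. No paired analysis was possible because there is 1 group. Depth limits Ddc, Slc18a1, Slc18a2 and Maoa most, each with 34 reads or fewer in a library.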
